A study of Homo sapiens with 3 samples.

Results

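Tubulin is the building block of microtubules, the hollow filaments that carry cargo through the cell and pull chromosomes apart in mitosis. The 10 genes described here, TUBA1A, TUBA1B, TUBA1C, TUBA4A, TUBB, TUBB2A, TUBB2B, TUBB3, TUBB4B and TUBB6, encode isotypes of its subunits, 4 of alpha-tubulin and 6 of beta-tubulin. They were chosen by gene name out of 50867 genes in the deposited table, and their levels, shares and folds in these same libraries were already known when they were put together. Their values are therefore given as a description, with no test. The data are RNA sequencing of polyA+ RNA from UM-UC-3 cells, a human line grown from a bladder cancer. The groups compared were shBLACAT2, cells that stably expressed either of 2 hairpins (shRNA 1 and shRNA 2) against the long non-coding RNA BLACAT2 (n = 2, 1 library per hairpin), and shControl, cells that expressed a scramble hairpin (n = 1). All cells, the control included, carried a lentivirus and had been selected with puromycin, and nothing in the labels says that any line was made or sampled more than once.

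Alpha- and beta-tubulin join into a dimer, and dimers stack into the microtubule wall. Human cells carry several genes for each subunit. Their protein products are closely alike over the body and differ most in the acidic tail at the carboxyl end, which faces outward and is read by motors and by modifying enzymes. Tubulin mRNAs are also under autoregulation: when free dimer is in excess, the protein TTC5 binds the first residues of the nascent chain on the ribosome and the mRNA is degraded through SCAPER and the CCR4-NOT complex. The mRNA start that codes for this signal, and, for the beta genes, the mRNA end that codes for the tail, are shown because the first is shared within each class but for a few bases and the second differs more between most of the genes, though TUBB2A and TUBB2B differ only in its last base.

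The first 30 coding bases of each member, from GENCODE 29 on GRCh38, with the 4 codons of the autoregulatory signal in capitals, read as follows.
TUBA1A: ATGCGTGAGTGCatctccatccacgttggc
TUBA1B: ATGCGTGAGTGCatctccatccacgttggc
TUBA1C: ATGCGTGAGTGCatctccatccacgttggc
TUBA4A: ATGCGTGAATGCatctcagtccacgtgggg
TUBB: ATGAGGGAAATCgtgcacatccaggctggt
TUBB2A: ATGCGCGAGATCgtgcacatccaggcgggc
TUBB2B: ATGCGTGAGATCgtgcacatccaggcgggc
TUBB3: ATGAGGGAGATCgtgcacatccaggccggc
TUBB4B: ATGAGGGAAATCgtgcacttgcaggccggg
TUBB6: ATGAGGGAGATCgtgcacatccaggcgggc
The last 60 coding bases before the stop codon, which code for the tail, follow for the beta genes, with capitals for bases that differ from TUBB, or are missing from it, in an alignment of the whole coding sequences.
TUBB: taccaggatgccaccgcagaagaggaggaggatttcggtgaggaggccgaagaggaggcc
TUBB2A: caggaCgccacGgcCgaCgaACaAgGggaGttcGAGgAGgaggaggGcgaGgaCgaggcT
TUBB2B: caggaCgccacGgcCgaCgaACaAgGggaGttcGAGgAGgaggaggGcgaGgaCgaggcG
TUBB3: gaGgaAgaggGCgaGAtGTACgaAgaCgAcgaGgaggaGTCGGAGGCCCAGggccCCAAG
TUBB4B: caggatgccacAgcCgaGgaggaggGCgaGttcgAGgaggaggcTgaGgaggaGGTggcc
TUBB6: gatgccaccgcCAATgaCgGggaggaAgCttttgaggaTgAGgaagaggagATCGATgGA

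Over the whole coding sequence TUBA1A was 97.2% and TUBA1C 96.8% identical to TUBA1B, and TUBA4A 85.7%. Of the beta genes, TUBB2A and TUBB2B were 98.2% identical to each other. The other beta pairs lay between 81.0% (TUBB and TUBB6) and 87.8% (TUBB2A and TUBB3). TUBB3 had 32 capitals in its tail stretch, against 13 in TUBB4B.

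This likeness bears on the counts. The principal transcript of each gene was cut into all overlapping stretches of 100 bases, and those that also occur on either strand in an annotated transcript of another gene were counted. They made up 71.1% of TUBA1B, 26.6% of TUBA1A, 29.6% of TUBA1C and 27.4% of TUBA4A. Among the beta genes the share was 89.0% for TUBB3, 56.4% for TUBB2A, 46.2% for TUBB2B, 20.4% for TUBB, 4.49% for TUBB4B and 0% for TUBB6. TUBB6 and TUBB4B are thus the members whose reads are best told apart by sequence, and with stretches of 50 bases they stood at 0.993% and 14.6%. The libraries were made with a stranded kit, but whether counting used strand, how reads with several matches were handled and how long the reads were is not given in the sources used here. Thus the single values of TUBA1A, TUBA1B, TUBA1C, TUBA4A, TUBB, TUBB2A, TUBB2B and TUBB3 are uncertain. Sums are given for TUBA1A, TUBA1B and TUBA1C, for TUBB2A and TUBB2B, and for each class. Part of the sharing is overlap of gene models at 1 locus. For TUBB3, 35.8% of the merged exon bases also belong to the read-through gene AC092143.1 on the same strand, which has 0 counts in every library. For TUBA1B, 36.6% belong to the antisense gene AC011603.2, with 3 counts with shRNA 1, 1 with shRNA 2 and 3 in the control. For TUBA1A, 14.3% belong to TUBA1C on the opposite strand.

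**Figure D1:**
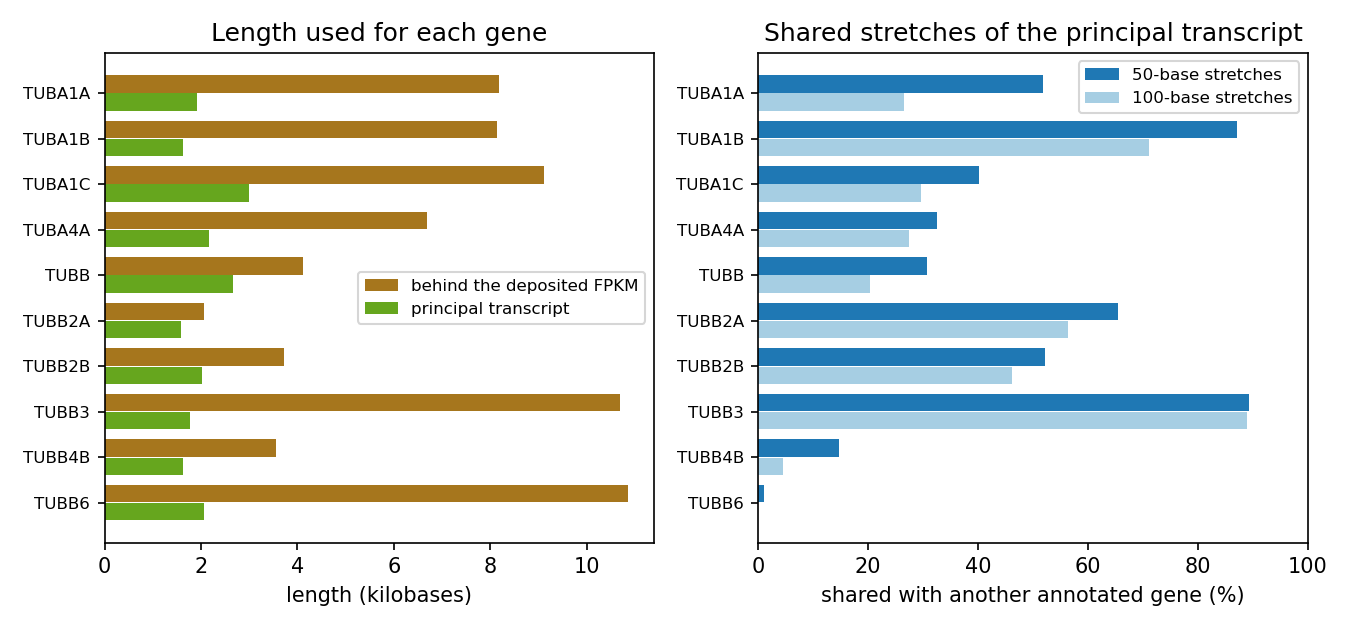
Left, length in kilobases that the deposited FPKM divides by (brown) and length of the principal transcript (green) for each member; right, percent of the principal transcript's overlapping stretches of 50 (dark) or 100 (light) bases that occur in another annotated gene. TUBB6 has the longest FPKM length, 10850 bases against a transcript of 2064, and 0% shared stretches of 100 bases.

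The target RNA was checked first. BLACAT2 is listed as LINC00958, with 816 counts in the library labelled shRNA 1, 1062 in that labelled shRNA 2 and 938 in the control, which is 73.5% (95% counting interval of the ratio 0.668 to 0.808) and 99.6% (0.911 to 1.09) of the control after scaling. The knockdown that the label of shRNA 2 names was not detectable in these counts, and shRNA 1 and shRNA 2 below stand for the libraries labelled so. Library totals were 17670199 counts for shRNA 1, 16216947 for shRNA 2 and 16424422 for the control. The urothelial and epithelial markers were largely present (KRT7 with 20236, 13229 and 19944 counts in the same order), while the uroplakins UPK1A and UPK3A had at most 1 count. Of 12 such markers tested, 3 had values at least 2-fold above the control with both hairpins, beside 5.29% of all genes: UPK1B with 2311, 923 and 306 counts, UPK2 with 108, 104 and 35, and CDH1 with 5201, 4565 and 1877. KRT5, KRT7 and KRT18, 3 of the 12, were below the control with both hairpins, beside 34.1% of all genes. With shRNA 2, 1 of the 12 was at least 2-fold lower, beside 8.76% of all genes. This was KRT5 (log2 folds -0.002 and -1.895). The 14 markers listed summed to 4925, 2809 and 3800 CPM (counts over the library total, scaled by trimmed means, TMM). Of 8 markers of platelets and leukocytes, 6 with shRNA 1, 4 with shRNA 2 and 6 in the control were at 0.

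Nearly all tubulin isotypes had lower levels in the libraries labelled with a BLACAT2 hairpin than in the control. In CPM, 9 of 10 were below the control with both hairpins, where 34.1% of all 15132 genes tested were. With shRNA 1, 5 of 10 were at least 2-fold lower (7.38% of all genes), and with shRNA 2, 7 of 10 were (8.76%). Both hairpins gave at least 2-fold lower values for 4 members, TUBA1A, TUBB2A, TUBB3 and TUBB6, against 4.5% of all genes. None was at least 2-fold higher with both, as 5.29% of all genes were. The median log2 fold of the members was -0.95 with shRNA 1 and -1.29 with shRNA 2, beside 0.01 and 0.04 over all genes. All 10 passed the filter of a mean of 1 CPM, TUBB3 only through the control. With library totals as the scaling TUBB2A was no longer 2-fold lower with both.

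**Figure D2:**
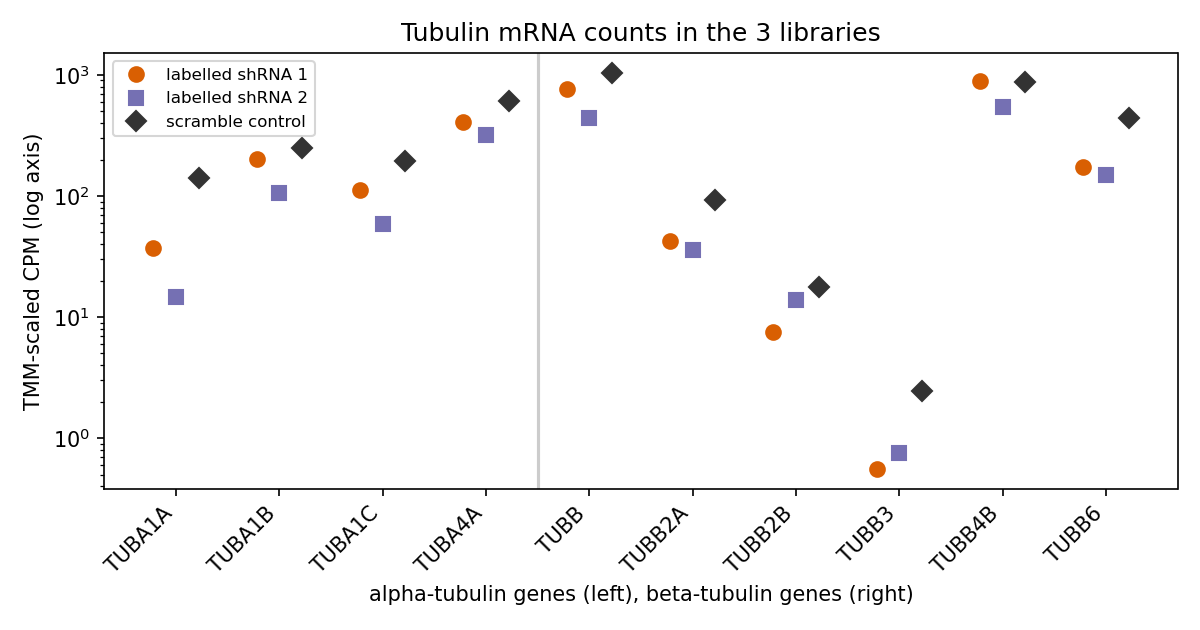
TMM-scaled CPM (log axis) of the 10 genes in the library labelled shRNA 1 (circles), the library labelled shRNA 2 (squares) and the scramble control (diamonds). The control is highest for every gene but TUBB4B, where the library labelled shRNA 1 (888) stands beside the control (877).

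TUBA1A, an alpha-tubulin known for its high level in developing neurons (ENSG00000167552; chr12:49184796-49189324, minus strand), had the lowest mean log2 fold of the 10. It had 662 counts with shRNA 1, 253 with shRNA 2 and 2131 in the control. Scaled, these were 36.9, 14.7 and 140 CPM, so that both hairpin libraries lay below the control, as they did for 34.1% of all genes. The level was 26.3% of the control with shRNA 1 (ratio interval 0.240 to 0.287) and 10.4% with shRNA 2 (0.0913 to 0.119). Averaged over the hairpins, the log2 fold was -2.59 ± 0.94 (SD, n = 2). This SD, here and below, is the spread between 2 different hairpins set against the same control, and holds no variation of the control. Of all genes tested, 2.62% had a lower fold with shRNA 1 and 0.859% with shRNA 2.

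TUBA1B, a widely expressed alpha-tubulin (ENSG00000123416; chr12:49127782-49131397, minus strand), had 3638 counts with shRNA 1, 1827 with shRNA 2 and 3809 in the control, or 203, 106 and 251 CPM. It was 80.7% of the control with shRNA 1 and 42.2% with shRNA 2. The mean log2 fold of -0.78 ± 0.66 (SD, n = 2) was close to the difference between the hairpins, which was -0.94 (shRNA 2 minus shRNA 1). TUBA1C, which overlaps TUBA1A on the opposite strand (ENSG00000167553; chr12:49188736-49274603, plus strand), had 1996 counts with shRNA 1, 1020 with shRNA 2 and 2944 in the control, or 111, 59.1 and 194 CPM. Its log2 folds were -0.80 and -1.71. The order of the libraries was the same for all 3 genes of the chromosome 12 group: control, then shRNA 1, then shRNA 2. Summed, the 3 genes had 6296 counts with shRNA 1, 3100 with shRNA 2 and 8884 in the control, with ratios of 0.599 (0.580 to 0.619) and 0.307 (0.295 to 0.320). The sum holds wherever reads are traded among these genes alone, and does not cover reads that were left uncounted.

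TUBA4A, an alpha-tubulin that is abundant in platelets and whose gene does not code for the final tyrosine of the tail (ENSG00000127824; chr2:219249711-219278170, minus strand), had the highest count of the alpha genes. It had 7334 counts with shRNA 1, 5504 with shRNA 2 and 9306 in the control, or 408, 319 and 613 CPM. Both hairpin libraries were below the control, at 66.6% (0.646 to 0.687) and 52.0% (0.503 to 0.538). Averaged over the hairpins, the log2 fold was -0.76 ± 0.25 (SD, n = 2), the smallest spread between hairpins among the alpha genes.

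TUBB, the class I beta-tubulin of most dividing cells (ENSG00000196230; chr6:30720201-30725426, plus strand), had 13680 counts with shRNA 1, 7615 with shRNA 2 and 15800 in the control. These were 762, 441 and 1041 CPM, and the gene ranked 65 in the control among all genes tested. It stood at 73.2% of the control with shRNA 1 and 42.4% with shRNA 2, with a mean log2 fold of -0.84 ± 0.56 (SD, n = 2). TUBB4B, the class IVb beta-tubulin found in most tissues and in cilia (ENSG00000188229; chr9:137241213-137243707, plus strand), was the exception among the 10. It had 15949 counts with shRNA 1, 9397 with shRNA 2 and 13313 in the control, or 888, 544 and 877 CPM. With shRNA 1 the ratio to the control was 1.01 (0.989 to 1.04), an interval that holds no difference, and with shRNA 2 it was 0.621 (0.605 to 0.637). TUBB4B was thus at the control level with shRNA 1 and below it with shRNA 2 (log2 folds of 0.02 and -0.69), and no direction is given for the group.

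TUBB6, the class V beta-tubulin (ENSG00000176014; chr18:12307669-12344320, plus strand), had 3137 counts with shRNA 1, 2580 with shRNA 2 and 6706 in the control, or 175, 149 and 442 CPM. The hairpin libraries lay close together and well below the control, at 39.5% (0.379 to 0.412) and 33.8% (0.323 to 0.354). Averaged over the hairpins, the log2 fold was -1.45 ± 0.16 (SD, n = 2), the smallest spread of the 10. Its exons overlap those of AFG3L2 on the opposite strand over 20.3% of their bases, and AFG3L2 had 1513, 1863 and 1222 counts in the same order, highest where TUBB6 was lowest.

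TUBB2A and TUBB2B are class II beta-tubulins, neighbours on chromosome 6 and abundant in brain. TUBB2A (ENSG00000137267; chr6:3153669-3157526, minus strand) had 767 counts with shRNA 1, 623 with shRNA 2 and 1395 in the control, with log2 folds of -1.10 and -1.35. TUBB2B (ENSG00000137285; chr6:3224261-3231730, minus strand) had 135 counts with shRNA 1, 237 with shRNA 2 and 267 in the control, with log2 folds of -1.21 and -0.35. Unlike TUBB2A, TUBB2B was higher with shRNA 2 than with shRNA 1, by a ratio of 1.83 (1.47 to 2.27). The sum of these near-identical genes was nearly the same with both hairpins, at 902 counts with shRNA 1, 860 with shRNA 2 and 1662 in the control, with ratios to the control of 0.459 (0.423 to 0.498) and 0.455 (0.419 to 0.494) after scaling.

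TUBB3, the class III beta-tubulin used as a marker of neurons (ENSG00000258947; chr16:89921392-89938761, plus strand), was sparsely counted. It had 10 counts with shRNA 1, 13 with shRNA 2 and 37 in the control, or 0.557, 0.753 and 2.44 CPM. The ratios were 0.228 (0.101 to 0.468) and 0.309 (0.151 to 0.595). Which hairpin was lower was not detectable with so few counts (ratio of shRNA 2 to shRNA 1 of 1.35, interval 0.548 to 3.45). Of 10 neuron markers, 5 with shRNA 1, 4 with shRNA 2 and 3 in the control had at most 10 counts, and GAP43 had 0 in every library. Of the 5 tested, 1 was at least 2-fold lower with both hairpins, beside 4.5% of all genes. This was SYT1, a synaptic vesicle protein gene with 16, 17 and 45 counts. SYT1 passed the 1 CPM filter only through the control. INA, a neuronal intermediate filament gene, had 2074, 2043 and 2300 counts. For the other tested markers the log2 folds with shRNA 1 and shRNA 2 were -0.23 and 0.09 (SYP), -0.22 and 0.98 (NEFL), and -0.22 and 0.60 (NEFM). The 10 summed to 122, 129 and 162 CPM, of which INA made up 115.5, 118.4 and 151.5, and their part in the tubulin values was not tested.

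**Figure D3:**
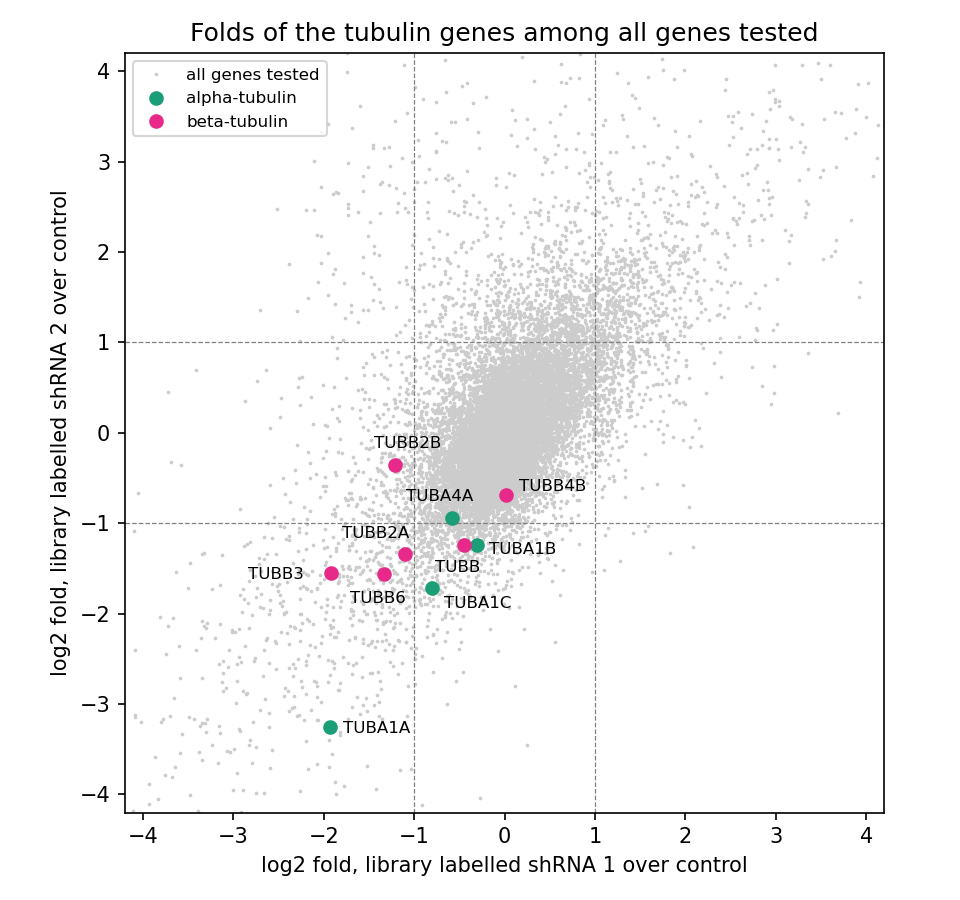
Log2 fold of each gene tested over the control, with shRNA 1 on the horizontal and shRNA 2 on the vertical axis; grey points are all genes tested (those beyond 4.2 are not drawn), coloured points the tubulin genes, dashed lines a 2-fold difference. TUBA1A lies at -1.93 and -3.25, TUBB4B at 0.02 and -0.69, and TUBA1A, TUBB2A, TUBB3 and TUBB6 lie in the lower left field beyond both lines.

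Summed by class, both subunits had lower counts in the hairpin libraries. The alpha genes had 13630 counts with shRNA 1, 8604 with shRNA 2 and 18190 in the control. Their ratios were 0.633 (0.619 to 0.648) and 0.416 (0.405 to 0.427), a mean log2 fold of -0.96 ± 0.43 (SD, n = 2). The beta genes had 33678, 20465 and 37518 counts in the same order, with ratios of 0.759 (0.748 to 0.770) and 0.480 (0.472 to 0.488) and a mean log2 fold of -0.73 ± 0.47 (SD, n = 2). All 10 took 0.268% of the counts with shRNA 1, 0.179% with shRNA 2 and 0.339% in the control. The ratio of alpha to beta counts was 0.405 with shRNA 1, 0.420 with shRNA 2 and 0.485 in the control, and per base of the principal transcript it was 0.392, 0.400 and 0.477. This ratio depends on how reads that match several genes were counted, which is not known. In bulk RNA, fewer cells that express a gene and less of its RNA per cell cannot be told apart.

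Levels of different genes can be set side by side only per length, and the deposited FPKM does not divide by a transcript's length. For 86.5% of 10869 genes with over 100 counts in the control, the length behind the FPKM equalled, within 1%, the summed length of all distinct annotated exons, in which overlapping exons count repeatedly. TUBA1C is the one member outside that tolerance, at 9119 bases against 9970 summed. For TUBA1B the length is 8145 bases against 1627 in the principal transcript, for TUBB6 10850 against 2064, and for TUBB2A 2072 against 1595. FPKM therefore sets members with many annotated transcripts low, and shares are given both in FPKM and in counts per base of the principal transcript, a scale that was added after the data were seen. A share within a class needs no scaling between libraries, but it depends on how reads that match several genes were counted.

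Among the alpha genes, TUBA4A held the largest share in each library as counted. In FPKM it held 59.5% with shRNA 1, 69.1% with shRNA 2 and 57.0% in the control, and per principal transcript 51.1%, 61.5% and 49.2%. Of the stretches of 100 bases, 71.1% of those in TUBA1B and 27.4% of those in TUBA4A are shared with other genes. Whether such reads were left uncounted is not known, and their part in these shares was not tested. TUBA1A held 4.39%, 2.60% and 10.7% in FPKM and 5.21%, 3.19% and 12.7% per principal transcript, below the control with both hairpins on both scales. In counts its share was 4.86% (95% Wilson interval 4.51 to 5.23), 2.94% (2.60 to 3.32) and 11.7% (11.3 to 12.2). TUBA1B held 24.3%, 18.9% and 19.2% in FPKM, above the control with shRNA 1 and close to it with shRNA 2. TUBA1C held 11.9%, 9.40% and 13.2%.

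Among the beta genes, the order of the leading members depended on the length and on the library. In FPKM TUBB4B held 52.6% with shRNA 1, 51.8% with shRNA 2 and 41.7% in the control, while TUBB held 39.2%, 36.4% and 43.0%. Per principal transcript TUBB4B led in each library, with 57.5%, 55.4% and 44.4% against 30.2%, 27.5% and 32.3% for TUBB. On both scales the share of TUBB4B was higher with both hairpins than in the control, and its share of counts was 47.4% (46.8 to 47.9), 45.9% (45.2 to 46.6) and 35.5% (35.0 to 36.0). TUBB6 held 3.40%, 4.67% and 6.91% in FPKM and 8.97%, 12.1% and 17.7% per principal transcript, lower with both hairpins. TUBB2A held 4.35%, 5.90% and 7.52% in FPKM, TUBB2B 0.426%, 1.25% and 0.801%, and TUBB3 at most 0.0387%.

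**Figure D4:**
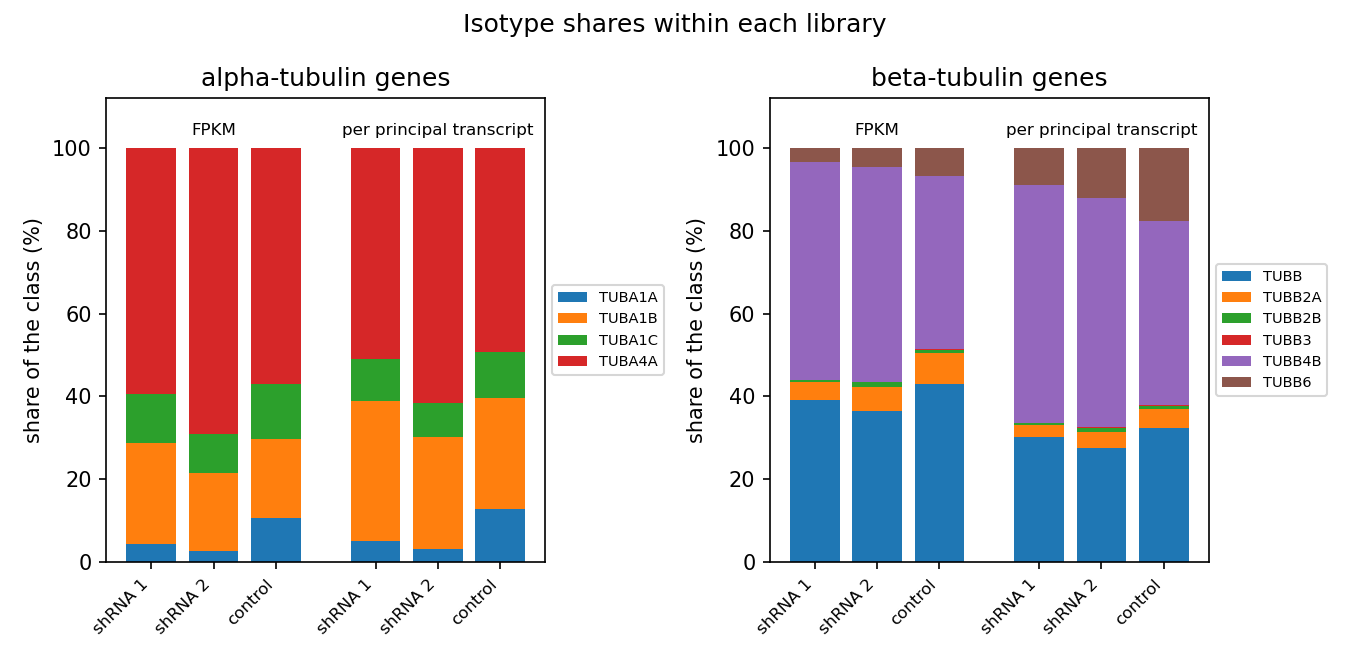
Share (%) of each gene in the summed level of its class, alpha on the left and beta on the right, in the library labelled shRNA 1, the library labelled shRNA 2 and the control, from FPKM (left 3 bars of a panel) and from counts per base of the principal transcript (right 3 bars). TUBA1A and TUBB6 take smaller shares with both hairpins than in the control, and TUBB4B takes a larger one.

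The remaining alpha and beta rows had few counts. The 6 other alpha genes together had 56 counts with shRNA 1, 110 with shRNA 2 and 56 in the control, at most 1.26% of the class, and the 3 other beta genes 26, 18 and 16. The 5 alpha pseudogenes held 60, 35 and 68 counts and the 33 beta pseudogenes 34, 43 and 41, at most 0.438% of their class.

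The hairpin libraries also differed from each other. Of the 10 members, 8 were lower with shRNA 2 than with shRNA 1, beside 49.7% of all genes, and the exceptions were TUBB2B and TUBB3. The difference was -1.32 for TUBA1A, -0.71 for TUBB4B and -0.22 for TUBB6 on the log2 scale. Each hairpin has 1 library, so this difference has no replicate check. Mitosis genes showed the same order of the hairpins: all 26 tested were lower with shRNA 2 than with shRNA 1, with median log2 folds over the control of 0.09 with shRNA 1 and -0.75 with shRNA 2, and MKI67, a marker of proliferating cells, at 0.40 and -0.47. Genes of actin and other filaments had medians of -0.36 and -0.90, 16 of 19 lower with shRNA 2. Their part in the tubulin values was not tested. The 8 fibroblast markers summed to 19.6 CPM with shRNA 1, 12.7 with shRNA 2 and 366 in the control, so their sum was highest in the control, as most isotypes were. COL1A1 alone made up 18.3, 9.39 and 346 CPM of these sums. The 3 tested were lower with both hairpins, but FAP passed the 1 CPM filter only through the control, and the other 5 were not tested. COL1A1 had 328, 162 and 5253 counts, PDGFRB 15, 31 and 152 and FAP 8, 21 and 102, while DCN and LUM had at most 2 counts in any library, and their part in the tubulin values was not tested.

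Beside the isotypes stood 8 lists of 155 genes, of which 140 were tested: other tubulin genes, genes that fold, modify, nucleate or bind tubulin or regulate its mRNA, mitosis genes, and genes of actin and other filaments. By the 2-fold rule with both hairpins, 4 of these 140 were lower, beside 4.5% of all genes, and 2 higher, beside 5.29%. Of the 2 higher, AGBL2, described below, passed the 1 CPM filter only through the hairpin libraries. edgeR's quasi-likelihood test with Benjamini-Hochberg adjustment passed 6 genes over all genes tested, all lower (0.0397% of genes lower, 0% higher), and none of the 140, of which 10 had an unadjusted p below 0.05 (10.2% of all genes did). DESeq2 passed 4 of the 140, TPM1, MAP1B and MYL9 lower and AKAP9 higher, beside 2.01% of the 14545 genes to which it gave an adjusted p lower and 1.64% higher. With 1 residual degree of freedom, the test takes its spread from the pair of hairpin libraries alone, and the single control is assumed to vary as much.

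Of the 4 autoregulation genes none was 2-fold away with both hairpins, and the median log2 folds were 0.27 and 0.19. CNOT1, the scaffold of the CCR4-NOT deadenylase complex, had 9111 counts with shRNA 1, 8996 with shRNA 2 and 6509 in the control (log2 folds 0.24 and 0.28, edgeR adjusted p = 0.901), and CNOT11, another subunit, 0.30 and 0.09 (adjusted p = 0.911). Chosen after their values were seen, TTC5 had 304, 232 and 314 counts (-0.29 and -0.62) and SCAPER 275, 350 and 143 (0.69 and 1.10). Of 20 genes of the prefoldin, CCT chaperonin and tubulin cofactor pathway, none was 2-fold away with both, and the medians were -0.06 and -0.49. CCT6A and CCT7, chaperonin subunits, had log2 folds of 0.07 and -0.50 and of 0.02 and -0.46 (adjusted p = 0.936 and 0.926).

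Of 18 tested enzymes that add or remove groups on tubulin, 1 passed the 2-fold rule with both hairpins, upward, beside 5.29% of all genes. This was AGBL2, a carboxypeptidase that takes residues off the tubulin tail, with 40 counts with shRNA 1, 39 with shRNA 2 and 15 in the control (log2 folds 1.08 and 1.10, adjusted p = 0.701). AGBL2 passed the 1 CPM filter only through the hairpin libraries. The list medians were 0.19 and -0.08. Of 20 genes of the gamma-tubulin complex and microtubule nucleation, 1 was higher by that rule, beside 5.29% of all genes, and none lower, beside 4.5%. AKAP9, a scaffold of nucleation at the Golgi and centrosome, had 1115, 1179 and 326 counts (1.53 and 1.66, adjusted p = 0.170), and the medians were 0.28 and 0.13. Of 5 tested members of the other tubulin genes, none was 2-fold away with both. The gamma-tubulin genes TUBG1 (1307, 1348 and 1223 counts) and TUBG2 (278, 347 and 379) had log2 folds of -0.15 and -0.04 and of -0.69 and -0.31 (adjusted p = 0.960 and 0.794), and the list medians were -0.30 and -0.04.

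The 28 tested microtubule-associated and dynamics genes had median log2 folds of -0.14 and -0.22. Of these, 1 passed the 2-fold rule with both hairpins, downward, beside 4.5% of all genes. This was MAP1B, which encodes a microtubule-associated protein abundant in neurons, with 173 counts with shRNA 1, 502 with shRNA 2 and 1950 in the control (-3.72 and -2.14, adjusted p = 0.199). Among the 19 tested genes of actin and other filaments 3 were at least 2-fold lower with both, beside 4.5% of all genes. The intermediate filament gene VIM had 1061, 154 and 7583 counts (-3.08 and -5.79, adjusted p = 0.245), the tropomyosin gene TPM1 2666, 2020 and 17210 (-2.93 and -3.28, adjusted p = 0.0766), and the myosin light chain gene MYL9 93, 153 and 456 (-2.51 and -1.75, adjusted p = 0.191). No mitosis gene was 2-fold away with both hairpins. With shRNA 2, 7 of 26 were at least 2-fold lower, beside 8.76% of all genes. With shRNA 1, 2 of the 26 were at least 2-fold higher, as were 1199 of the 15132 genes tested.

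The fold pair of TUBA1A was set beside those of 11325 other protein-coding genes with at least 100 counts in some library. The nearest, by Euclidean distance between the pairs of log2 folds, were B4GALNT1 (-1.82 and -3.31, distance 0.120), SCG2 (-1.94 and -3.39, 0.144) and SRPX (-2.07 and -3.18, 0.158). B4GALNT1 is an enzyme of ganglioside synthesis, SCG2 a secretory granule protein and SRPX a sushi-repeat protein. All 3 passed the filter of 100 counts only through the control, and each had fewer than 100 counts with either hairpin. The likeness rests on 3 libraries that share 1 control, and 21 genes lay within a distance of 0.5.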

How the data were processed

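The authors deposited 1 table with a read count and an FPKM value for every gene in each of the 3 libraries. Alignment was with TopHat2 2.0.9 to hg38, per the submitters' processing notes. No source used here names the counter, its strand setting or its annotation. TGFB1, whose row is broken over 4 lines, was left out, and 50867 genes remained.

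Genes averaging 1 CPM or more were tested (15132). Counts were scaled with TMM factors (1.02 for shRNA 1, 1.06 for shRNA 2, 0.924 for the control). The log2 folds compare log2 CPM, prior count 2. edgeR 4.0.16 gave the two-sided quasi-likelihood test, and limma 3.58.1 and DESeq2 1.42.0 were alternatives. A trial of the edgeR test used simulated counts in which all 3 libraries varied as replicates with 1 common spread. Such counts cannot show how the test behaves on these libraries, where the hairpins differ from each other. The p-values measure only the spread between these libraries. Intervals of count ratios are exact conditional binomial ones at 95%; without molecular identifiers, all intervals cover counting error only. Positions, transcripts and sequences come from GENCODE 29 on GRCh38, whose positions equal the table's for all 10 members. The principal transcript is the first by APPRIS tag, then CCDS, then length. All 10 members are named, as are the 3 genes nearest to the member with the largest mean log2 fold in size and, of each other list, up to 4 genes at least 2-fold away with both hairpins or, with none, the 2 of highest mean CPM. TTC5, SCAPER, TUBB6's neighbour AFG3L2 and marker genes beyond that rule were chosen after their values were seen. The members, lists and tests were chosen with earlier results of these data known. The coding ends of the alpha genes are not reported here.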

Additional observations from a re-analysis of the deposited data

How the results depend on the processing

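Scaled by DESeq2's factors or by library totals, both class sums kept their direction, and library totals moved the median log2 fold of all genes to 0.14 with shRNA 1 and 0.24 with shRNA 2. Without the library labelled shRNA 1 or shRNA 2, the alpha sum had a log2 fold of -1.27 or -0.66 and the beta sum -1.06 or -0.40. Members at least 2-fold lower, 4 with both hairpins, ranged from 5 to 7 with 1 hairpin alone, and numbered 3 with library totals, without TUBB2A, and 3 at 5 CPM, where TUBB3 was not tested. Over all genes, 681 were lower and 800 higher by that size with both; the lower count was 1525 with no filter, 443 at 5 CPM and 1116 to 1325 with 1 hairpin alone, and the higher count was 1280 with no filter and 1199 to 1962 with 1 hairpin alone. Genes past the test numbered 6 with edgeR, 531 with DESeq2 and 0 with limma (1560 at an unadjusted p below 0.05), with no filter (1461) or at 5 CPM (1240), and of the other lists' genes 0 passed edgeR and 4 DESeq2; the cause was not tested. Without the library labelled shRNA 1 or shRNA 2, the log2 fold of TUBB4B was -0.69 or 0.018. The FPKM share of TUBA1B then differed from the control by -0.30 or 5.09 percentage points, and that of TUBB2B by 0.45 or -0.37. Each of these values thus takes a different sign with 1 hairpin than with the other. For TUBA1B this holds in FPKM only: its share with shRNA 2 was above the control in counts, at 21.2% against 20.9%, and per principal transcript, at 27.1% against 26.8%. For TUBB4B, the 0.018 with shRNA 1 lies within counting error (ratio 1.01, interval 0.989 to 1.04). The log2 fold of TUBB6 was -1.28 with library totals. With 1 hairpin left out no residual degree of freedom remains, so the test was not run. No paired analysis was possible because the control is 1 library whose label carries no number. Low counts limit TUBB3 most, at 10 to 37, and their cause was not tested.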

Other observations

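The length behind the deposited FPKM, the sum of all distinct annotated exons, reaches past the tubulin genes. Over 10869 genes with more than 100 counts in the control it was a median of 1.57 times the merged exon length and 2.20 times the longest transcript. Comparisons of 1 gene between libraries do not depend on it, and comparisons between genes do. In the control, TUBB stood above TUBB4B in FPKM, at 234 against 227, and below it per base of the principal transcript, at 390 against 536 CPM per kilobase. For TUBB6 the step between the scales was wider, with 6.91% of the beta class in FPKM and 17.7% per principal transcript.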
